A study of Mus musculus with 4 samples.

Results

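The fibroblast growth factor (FGF) genes studied here are 3 receptors, Fgfr1, Fgfr2 and Fgfr3, and 5 ligands, Fgf1, Fgf2, Fgf7, Fgf18 and Fgf23. They were listed by name for their place in the skeleton, but with earlier results of these data known. Their counts against the shares of all genes are therefore a description and not a test. Every probe set annotated to exactly 1 of these symbols was taken, which gave 16 of 45037 probe sets and 8 of 18193 genes, and 0 probe sets named a member together with another gene. The genes were measured on 4 arrays in cells that carried CD51 (the integrin alpha v chain) and lacked the lineage antigens, CD45, CD31 and Sca1, a sort that the submitters use for osteoblasts, the cells that lay down bone. The cells came from the marrow of adult NOD.CB17-Prkdc scid/J mice, an immunodeficient strain that lacks mature B and T cells, described as recipients. Neither a transplant, a treatment nor an exact age is given for these samples in the sources used here. The trabecular group was sorted from the trabecular bone area, the spongy bone, and the long bone group from the long bone area, with 2 arrays each. All 4 arrays share strain, sort and protocol. The labels call the arrays of a group biological replicates without saying which mice they came from or whether mice were pooled, so the tests measure the spread between these samples only. The comparison asks how the sorted cells differ between the 2 areas, and 2 arrays per area limit the precision of every value.

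FGF ligands bind receptor tyrosine kinases together with heparan sulfate chains of cell surface and matrix proteoglycans, and the bound receptors pair and signal through the adaptor Frs2, Grb2 and the Ras to ERK kinases. In the skeleton, Fgfr3 restrains the growth of cartilage columns in the growth plate, Fgf18 acts on cartilage and bone from the cells around them, and Fgfr1 and Fgfr2 act in cells of the bone-forming lineage. Fgf23 differs from the rest: it is a hormone made by osteocytes that lowers blood phosphate and needs the co-receptor Klotho.

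The deposited log2 values are centred on the median of the 4 arrays for each probe set, so they show which arrays were higher or lower and carry no level. Because of that centring the values of the middle pair of arrays are always equal in size and opposite in sign. The size of the numerical steps left in the values gives a coarse level on the log2 scale. Of the 16 probe sets, 2 were read at 8 or above (1 each of Fgfr1 and Fgfr2), 13 at 4 to 8 and 1 (Fgf2) at 2 to 4. In what follows, pairs of values are given for array 1 and then array 2 of an area. The sort itself was checked in the same way. Of the osteoblast genes looked at, Alpl and Col1a1 were read at 8 or above. Sp7, a transcription factor of osteoblasts, was read at 4 to 8, as were Ibsp and Omd, and Col1a2 had probe sets in both bands. So did Cxcl12, a gene of other marrow stroma cells. For CD51, 1 of 5 Itgav probe sets was read at 8 or above. The CD31 gene Pecam1 was read at 4 to 8, but of the 2 probe sets of the CD45 gene Ptprc 1 was read at 8 or above although the sort selected against CD45. These bands also depend on the probes and do not show that a gene is off.

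The stretches before the transcription start of Fgfr3, Fgf18 and Fgf7 are shown because Fgfr3 gave the largest difference of a probe set without overlap, Fgf18 the closest pair of arrays within an area by gene mean, and Fgf7 the largest value on 1 array. Each is the 250 bases upstream of the start (the first of 2 starts for Fgfr3), 5′ to 3′ on the gene's strand, from RefSeq on GRCm38.p6. Fgfr3 lies at chr5:33721474-33721723 on the plus strand, Fgf18 at chr11:33147401-33147650 on the minus strand and Fgf7 at chr2:126034408-126034657 on the plus strand. Capitals mark the GC box GGGCGG or its reverse complement CCGCCC.
Fgfr3: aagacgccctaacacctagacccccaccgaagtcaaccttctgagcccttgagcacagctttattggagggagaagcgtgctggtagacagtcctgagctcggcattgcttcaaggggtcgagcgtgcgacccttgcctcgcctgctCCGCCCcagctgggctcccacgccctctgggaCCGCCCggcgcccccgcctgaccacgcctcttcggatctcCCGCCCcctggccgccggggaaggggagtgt
Fgf18: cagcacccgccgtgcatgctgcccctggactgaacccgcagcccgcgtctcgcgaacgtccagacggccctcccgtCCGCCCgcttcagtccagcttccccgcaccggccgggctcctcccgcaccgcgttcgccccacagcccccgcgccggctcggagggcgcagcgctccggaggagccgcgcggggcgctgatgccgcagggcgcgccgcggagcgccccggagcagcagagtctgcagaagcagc
Fgf7: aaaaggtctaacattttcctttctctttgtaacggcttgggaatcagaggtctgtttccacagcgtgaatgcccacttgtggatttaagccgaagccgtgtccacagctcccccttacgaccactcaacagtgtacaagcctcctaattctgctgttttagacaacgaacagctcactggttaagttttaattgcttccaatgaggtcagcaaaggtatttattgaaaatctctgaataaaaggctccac
The Fgfr3 stretch has a G+C content of 66.8% and holds 3 GC boxes, and that of Fgf18 has 77.2% and 1 GC box. The Fgf7 stretch has 43.6% and none. Over 32851 such stretches of mouse genes the median G+C content is 52.4%, and 32.7% hold a GC box. The TATA box TATAAA (in 12.4% of all stretches), the RUNX letters TGTGGT (14%) and the SOX letters AACAAT (9.42%), each searched on both strands, did not occur in these 3. Windows of 6 of the 8 genes were used. None was given for Fgfr1, and the chromosome of Fgf1 was left out when windows of the members were chosen. Among the windows not shown, that of Fgf23 held the SOX letters once, 61 bases before its start. These matches describe the letters only.

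All 8 genes had a lower mean in the trabecular area, where 45.4% of all genes did. The size was modest: 6 of the 8 differed by between -0.21 and -0.44 on the log2 scale, Fgf7 by -0.98 and Fgf23 by -0.02. In 6 of the 8 both trabecular arrays lay below both long bone arrays, against 21.4% of all genes in that direction, and 0 of the 8 were higher without overlap, against 29.9%. The median difference was -0.41, against 0.03 over all genes. No member passed the test. With limma and Benjamini-Hochberg adjustment over all genes, the number past an adjusted threshold of 0.05 was 0 of the 8 and 0 of 18193 (0%), and the lowest adjusted p of a member was 0.270, for Fgf18. At an unadjusted p under 0.05 there were 3 members, Fgfr1, Fgfr3 and Fgf18, all lower, against 4.62% of all genes in that direction and 15.5% in either. In fits with 1 array left out, the spread between replicates comes from the remaining pair alone, so a count can change with little change in the differences. Without trabecular array 1 and 2 in turn, Fgfr1 differed by -0.39 and -0.42, Fgfr3 by -0.27 and -0.57 and Fgf18 by -0.37 and -0.49. The count of members under the unadjusted threshold changed with the array left out. It was 0 without trabecular array 1 (5.58% of all genes in either direction) or without trabecular array 2 (6.51%). Leaving out long bone array 1 gave 5 (30%), and leaving out the other one gave 1 (13.6%). An exact permutation test of 2 arrays against 2 cannot go below p = 0.33 (two-sided). In bulk samples such as these, fewer cells of a type and less RNA per cell cannot be told apart.

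**Figure D1:**
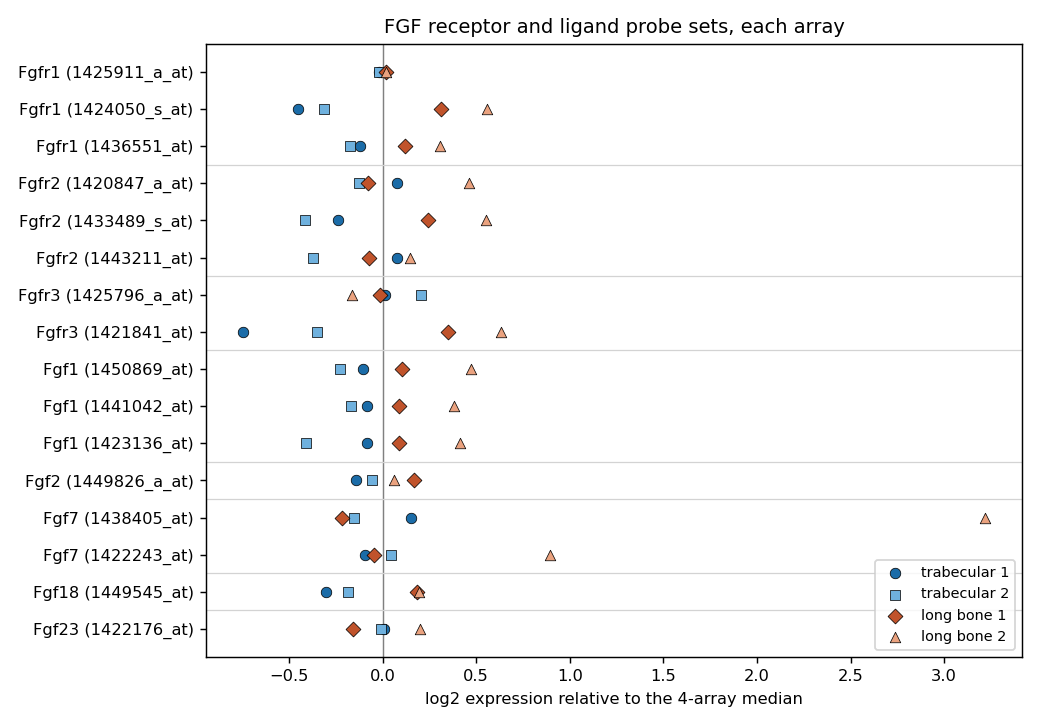
Log2 expression relative to the 4-array median (horizontal axis) of the 16 probe sets of the 8 FGF genes, with 1 symbol per array. Long bone array 2 lies far to the right for both Fgf7 probe sets (3.22 and 0.90), and the 2 Fgfr3 probe sets order the arrays in opposite ways.

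By probe set, 15 of the 16 were lower in the trabecular area (51.1% of all probe sets were). Without overlap 10 were lower, against 26.2% of all probe sets, and 1 was higher, against 25.9%.

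Fgfr3 showed the largest difference of any receptor probe set and also the only probe set of the family that went the other way. Probe set 1421841_at read -0.74 and -0.35 in the trabecular pair, against 0.35 and 0.63 in the long bone pair. The areas did not overlap, and the trabecular mean was 2.05-fold lower (-0.55 ± 0.28 against 0.49 ± 0.20, SD, n = 2 each; log2 difference -1.04, SE 0.21). Its adjusted p over all probe sets was 0.210 with limma, where 0% were called. Only 2.84% of probe sets had a lower difference. The second Fgfr3 probe set, 1425796_a_at, read 0.01 and 0.21 in the trabecular area and -0.01 and -0.17 in the long bone area. Here the areas did not overlap either, but the trabecular arrays were the higher ones, by 0.20 (95% interval -0.20 to 0.60). Of 9010 genes with more than 1 probe set, 15.9% likewise had 1 lower and 1 higher without overlap. The mean over both Fgfr3 probe sets, -0.42 (95% interval -0.83 to -0.01, adjusted p 0.318 with limma), therefore stands between readings that disagree.

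Fgfr1, the receptor that many mesenchymal cells carry, was lower in the trabecular area on each of its 3 probe sets, with no overlap on any. The sizes differed widely. Probe set 1424050_s_at read -0.45 and -0.31 in the trabecular pair against 0.31 and 0.56 in the long bone pair, a 1.76-fold difference (log2 difference -0.82, SE 0.16, limma adjusted p 0.206). Probe set 1436551_at read -0.12 and -0.17 against 0.12 and 0.31. The third, 1425911_a_at, read at 8 or above, was almost flat: -0.02 in both trabecular samples against 0.02 in both long bone samples. Its range over the 4 arrays was 0.0416, and 99.8% of all probe sets had a wider one. The gene mean differed by -0.41 (95% interval -0.74 to -0.07, limma adjusted p 0.283), and the probe sets ranged from -0.82 to -0.04.

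Fgfr2, which acts with its ligands in osteoblast precursors, had 1 probe set with no overlap among its 3. Probe set 1433489_s_at, read at 8 or above, gave trabecular values of -0.24 and -0.41 and long bone values of 0.24 and 0.55. That is a 1.65-fold lower trabecular mean (log2 difference -0.72, SE 0.17, limma adjusted p 0.227). On 1420847_a_at the values were 0.08 and -0.13 against -0.08 and 0.46, and on 1443211_at 0.08 and -0.37 against -0.08 and 0.15. Both overlapped, with differences of -0.22 and -0.18. The former turned to 0.06 without long bone array 2 and the latter to 0.04 without trabecular array 2. The gene mean differed by -0.37 (95% interval -0.88 to 0.13, limma adjusted p 0.406).

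Across the 3 receptors 1 probe set each lay at or beyond 0.72 in the lower direction, and the other 5 lay between -0.36 and 0.20. By gene mean the differences of Fgfr1, Fgfr2 and Fgfr3 were close (-0.41, -0.37 and -0.42), each inside the intervals of the others. They were further apart without long bone array 2, at -0.33, -0.19 and -0.39, and Fgfr3 was -0.27 without trabecular array 1. Restricting each gene to the probe set with the largest range moved the median of the 8 genes from -0.41 to -0.61.

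Among the ligands, Fgf18 was the most even within areas. Its single probe set read -0.30 and -0.18 in the trabecular pair against 0.18 and 0.19 in the long bone pair. The trabecular mean was 1.35-fold lower (-0.24 ± 0.08 against 0.19 ± 0.01, SD, n = 2 each; log2 difference -0.43, 95% interval -0.76 to -0.10; adjusted p 0.270 with limma). With any 1 array left out, the difference stayed between -0.49 and -0.37. For Fgfr1 the same range was -0.48 to -0.33.

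Fgf1, a ligand that binds every FGF receptor, had 3 probe sets that agreed. Probe set 1450869_at read -0.10 and -0.23 in the trabecular pair against 0.10 and 0.47 in the long bone pair. The values were -0.09 and -0.17 against 0.09 and 0.38 for 1441042_at, and -0.09 and -0.41 against 0.09 and 0.41 for 1423136_at. No probe set overlapped between areas, and the differences were -0.46, -0.36 and -0.50. The gene mean differed by -0.44 (SE 0.17, 95% interval -0.89 to 0.02, limma adjusted p 0.33) and was -0.27 without long bone array 2. The first and the last of these probe sets are annotated to the same source transcript, so they are not separate evidence.

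Fgf2, made by cells of the osteoblast lineage and stored on heparan sulfate in the matrix, had 1 probe set, the only member read at 2 to 4. It gave -0.14 and -0.06 in the trabecular pair against 0.17 and 0.06 in the long bone pair. The areas did not overlap, but the difference of -0.21 had a 95% interval of -0.55 to 0.12 (limma adjusted p 0.454). It was the only member with its highest value on long bone array 1.

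Fgf7, also called keratinocyte growth factor, is made by mesenchymal cells and acts on the epithelial form of Fgfr2. It was high on 1 array. Probe set 1438405_at read 0.15 and -0.15 in the trabecular pair but -0.21 and 3.22 in the long bone pair, so the long bone arrays lay 10.8-fold apart. Probe set 1422243_at showed the same array high, at 0.90 against values between -0.09 and 0.05 on the other 3. By gene mean, only 1.24% of all genes had a wider range over the 4 arrays than Fgf7 (2.19). The difference between areas was -0.98 (95% interval -2.94 to 0.99, limma adjusted p 0.549), and the areas overlapped. Without long bone array 2 it turned to 0.12. Without long bone array 1 it was -2.07 and passed the test, with an adjusted p of 0.0358 in a limma fit whose only replicates are the trabecular arrays. In that fit 8.81% of all genes passed.

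Fgf23, the phosphate hormone of osteocytes, showed no separation of the areas. Its probe set read 0.01 and -0.01 in the trabecular pair against -0.16 and 0.20 in the long bone pair. The difference was -0.02, with a 95% interval of -0.47 to 0.42, so differences inside that interval are not excluded. The sign turned without long bone array 2 (0.16) and after quantile normalization (0.022).

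**Figure D2:**
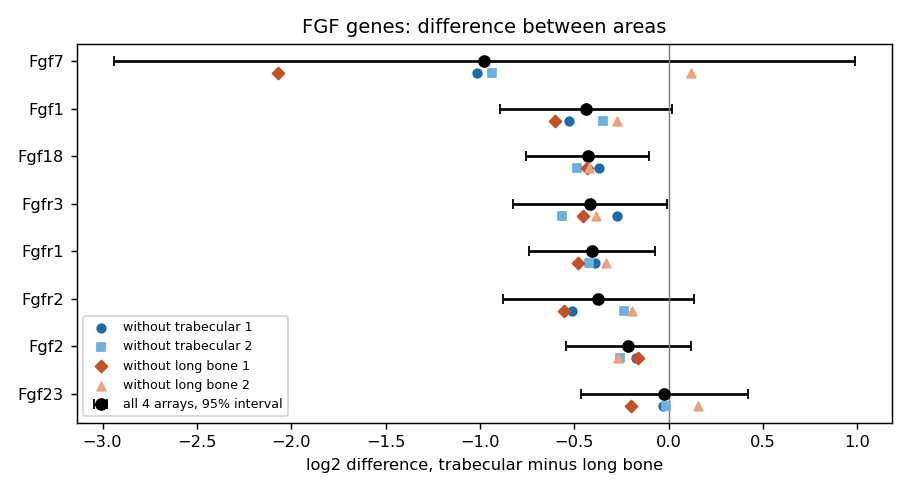
Log2 difference between areas, trabecular minus long bone (horizontal axis), for each of the 8 genes. Black points with bars are the limma estimates with 95% intervals from all 4 arrays, and coloured symbols are the estimates with 1 array left out. Fgf7 runs from -2.07 to 0.12 as single arrays are dropped, while Fgf18 stays between -0.49 and -0.37.

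The order of the gene differences, from the lowest, was Fgf7, Fgf1, Fgf18, Fgfr3, Fgfr1, Fgfr2, Fgf2 and Fgf23. The 95% intervals of all neighbours in this order overlap, so the order itself is not resolved beyond their spread. Long bone array 2 carried the highest value of 7 of the 8 genes, where it carried the highest value of 35.2% of all genes. The median of the 8 was -0.12 on each trabecular array, against 0.12 and 0.26 in the long bone pair. Without long bone array 2 the median difference was -0.27, 6 genes stayed lower in the trabecular area and 2, Fgf7 and Fgf23, were higher.

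Long bone array 2 stood apart over the whole array as well. Its log2 SD over all probe sets was 0.483, against 0.271 to 0.311 on the others, and the 5′ minus 3′ difference of its Gapdh control was -1.16, against -0.09 to 0.31. Its Actb control, read in the same way, gave -0.04 and so lay within the -0.07 to 0.44 of the others. Differences also varied with signal over all probe sets. Those read at 4 to 8 had a median difference of -0.07, with 32.6% lower in the trabecular area without overlap, and those read at 8 or above had a median of 0.18, with 16.7%. The 13 member probe sets read at 4 to 8 had a median of -0.43, with 7 lower without overlap. Both read at 8 or above were lower without overlap, that of Fgfr2 by -0.72 and that of Fgfr1 by only -0.04. The part of signal and of RNA quality in the FGF differences was not tested.

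Markers of several cell types, among them the osteoblasts that the sort is used for, moved with several members. All 17 measured chondrocyte markers were lower in the trabecular area, 16 of them without overlap (21.4% over all genes), with a median difference of -2.38. Their medians were -1.15 and -1.08 in the trabecular pair against 1.30 and 1.17 in the long bone pair, and the largest differences were in Comp (-5.18) and Col11a1 (-4.07), genes of the cartilage matrix. Fgfr3, Fgfr1 and Fgf18 separated the same arrays by much less. All 8 measured of 13 listed osteoblast markers were lower without overlap, with a median of -1.33, among them Col1a2 (-2.46) and the bone sialoprotein gene Ibsp. Tendon, periosteum and fibroblast markers had a median of -0.45 (7 of 12 lower without overlap, 2 higher), led by the proteoglycan Dcn (-2.19) and by Thbs4 (-1.92). Leaving out a long bone array moved that median, to -0.91 for array 1 and to -0.17 for array 2. The part of these cells in the receptor and Fgf18 values was not tested.

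The Fgf7 value moved with reticular stroma markers, genes of the Cxcl12-rich cells of the marrow. Of these 14 markers 13 had their highest value on long bone array 2, where 35.2% of all genes did. The median of the markers was 1.47 there, against 0.08 and -0.56 in the trabecular pair and -0.11 on the other long bone array. Their values on long bone array 2 ran from -0.63 to 4.71, and Esm1 and Adipoq were the highest, at 4.71 and 4.49. The median difference of the list was -0.99, and -0.04 without that array. Without overlap 2 of the 14 were lower and 1 higher in the trabecular area, against 21.4% and 29.9% of all genes. Other lists were also higher on long bone array 2 than on long bone array 1. The osteoblast markers had medians of 0.78 and 0.26 on these arrays, and the tendon, periosteum and fibroblast markers of 0.65 and 0.07. Endothelial markers stood at 0.12 and -0.09, and muscle markers at 0.09 and 0.01, with Tagln at 1.35 on long bone array 2. The part of these cells in the Fgf7 value was not tested. By root mean square distance over the 4 arrays, each gene centred on its mean, the genes nearest to Fgf7 were Amy1, an amylase (distance 0.04), and Myl9, a myosin light chain (0.07), which read 2.03 and 2.07 on long bone array 2.

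The remaining marker lists had smaller median differences. Their counts without overlap stand against 21.4% of all genes lower and 29.9% higher. Endothelial markers had 2 of 11 lower and 2 higher, and their median of -0.02 turned to 0.11 without long bone array 2 and to 0.05 without trabecular array 2. Among them were Vwf at -0.76 (0.11 without long bone array 2) and Tie1 at 0.56. Leukocyte and lineage markers had 0 of 16 lower and 5 higher, the latter near the share of all genes. Their median was 0.13, from 0.07 without long bone array 2 to 0.21 without long bone array 1. Itgam differed by 1.68 (0.85 without long bone array 2), and Coro1a by 0.76 (-0.39 without that array). The muscle list had 3 of 9 lower, above the share of all genes, and 0 higher. Its median was -0.07, which turned to 0.04 without long bone array 2 and to 0.05 without trabecular array 2. Its Myh11 differed by -0.58, and by -0.29 without long bone array 2. As the values are centred, no marker can be said to be absent.

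**Figure D3:**
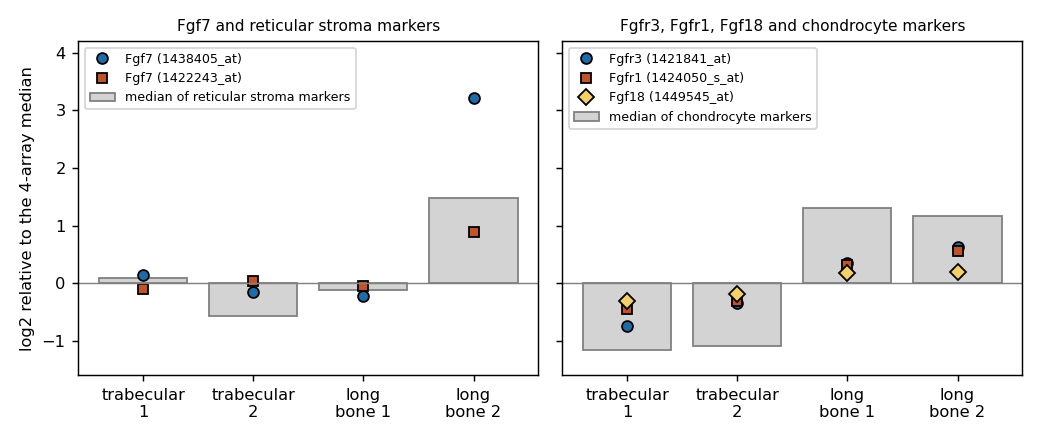
Log2 expression relative to the 4-array median (vertical axis) on each array. Grey bars give the median of the reticular stroma markers (left, 1.47 on long bone array 2) and of the chondrocyte markers (right, -1.15 and -1.08 against 1.30 and 1.17). Points give single FGF probe sets. On the right only the probe set with the largest range is drawn for each gene. This leaves out the Fgfr3 probe set that was higher in the trabecular area and the almost flat Fgfr1 probe set.

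The rest of the FGF pathway was described from 7 lists by role, 78 measured of 87 listed genes, of which 31 were lower and 15 higher without overlap and 0 passed the adjusted test in limma. The counts without overlap in this and the following lists stand against 21.4% of all genes lower and 29.9% higher. The other secreted ligands had small differences: of 13, 4 were lower and 2 higher without overlap, with a median of -0.04 and 0 at an unadjusted p under 0.05. The sign of this median followed single arrays: it was 0.03 without long bone array 2, 0.06 without trabecular array 2 and -0.12 without trabecular array 1. Fgf9, which acts with Fgf18 in the skeleton, differed by -0.23, Fgf4 by -0.23, and Fgf16 and Fgf6 by 0.09 and 0.07. The 13 ran from -0.23 to 0.09. Of the 5 skeletal ligands Fgf2 (-0.21) and Fgf23 (-0.02) lay inside this range and Fgf1 (-0.44) and Fgf18 (-0.43) below it. Fgf7 also lay below it at -0.98, but at 0.12 without long bone array 2. The contrast was not tested.

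The intracellular FGF homologues, which are not secreted and bind sodium channels, included the largest difference among the FGF genes measured here. Fgf14 read -0.74 and -0.62 in the trabecular pair against 0.61 and 0.76 in the long bone pair, a difference of -1.37 (SE 0.13, limma adjusted p 0.171). That mean joins 4 probe sets that fell into pairs. Probe sets 1458830_at and 1447480_at differed by -3.12 and -2.39, with both trabecular arrays between -1.62 and -1.04 and both long bone arrays between 1.04 and 1.79. The other pair, 1435747_at and 1449958_a_at, differed by 0.15 and -0.11. Fgf11 differed by -0.27, and Fgf12 and Fgf13 overlapped between the areas.

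Of the 9 other receptors, co-receptors and binding proteins, 4 were lower and 0 higher without overlap, with a median of -0.06 (-0.14 to -0.09 with 1 array left out). Fgfrl1, a receptor without a kinase domain, was lower on both its probe sets. It read -0.30 and -0.30 against 0.30 and 0.52 on 1447878_s_at, and its gene mean differed by -0.61 (SE 0.16, limma adjusted p 0.259). The means of the 3 signalling receptors lay at -0.42 to -0.37, and this contrast was not tested. Flrt2, a membrane protein that can bind FGF receptors, differed by -0.58, and by -0.21 without long bone array 2. Fgfr4 (-0.03), and the co-receptors Kl (0.13) and Klb (0.08), overlapped between areas. Kl was 0.02 without trabecular array 1, and Klb turned to -0.01 without long bone array 1 and to -0.04 over probe sets read at 8 or above.

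Heparan sulfate proteoglycans and their enzymes were lower without overlap in 10 of 19 cases and higher in 3, with a median of -0.29 (-0.10 without long bone array 2). The largest differences were in syndecans, cell surface carriers of the chains: Sdc4 at -1.12 (limma adjusted p 0.234) and Sdc1 at -0.94 (-0.49 without long bone array 2). In the other direction stood Hpse, the enzyme that cuts heparan sulfate, at 0.61, and Gpc1 at 0.47. The Hpse difference was 0.07 without long bone array 2.

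The intracellular steps of the pathway had a positive median. Of 13 adaptor and Ras to ERK genes 7 were higher without overlap and 3 lower, with a median of 0.20 (0.31 without long bone array 1). Over all genes restricted to probe sets read at 8 or above, the median was 0.21. Of the probe sets read there, 39.7% were higher without overlap. Among the genes named next, Nras, Map2k1 and Plcg1 had probe sets in that band and Gab1 had none. The part of signal in this list was not tested. Nras and the kinase Map2k1 differed by 0.80 and 0.70 (0.45 and 0.30 without long bone array 2), while Gab1, a docking protein, differed by -0.43 (-0.21 without that array) and Plcg1 by -0.16 (-0.05 without it). Feedback inhibitors and targets were mixed, with 4 of 11 lower and 3 higher without overlap and a median of -0.16 that turned to 0.10 without long bone array 2. The ERK phosphatase Dusp6 read 1.43 and 0.83 in the trabecular pair against -0.83 and -1.01 in the long bone pair (limma adjusted p 0.195), and Spred3 differed by 0.41. Il17rd, an inhibitor at the membrane, and the target Etv4 differed by -0.36 and -0.29 (both -0.14 without long bone array 2).

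Genes that act around Fgf23 in phosphate control included several with values apart between the areas. Of the 9 measured, 4 were lower and 0 higher without overlap, with a median of -0.13, from -0.05 without trabecular array 1 to -0.24 without long bone array 1. The pyrophosphate transporter Ank read -0.24 and -0.25 in the trabecular pair against 1.21 and 0.24 in the long bone pair, a difference of -0.97 (limma adjusted p 0.309) that was -0.49 without long bone array 1. Dmp1, an osteocyte matrix protein whose loss raises Fgf23, differed by -0.96, and by -0.51 without that array. Its 3 probe sets were far apart, and without the _s_at and _x_at ones, suffixes that mark sets able to match several transcripts, the Dmp1 difference was -0.09. That value came from a probe set not read at 4 or above. Over the Dmp1 probe sets that were read there, the difference was -1.40. The osteocyte markers as a list had a median of -0.70, with Ackr3 at -2.75, and of -0.06 without long bone array 2.

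**Figure D4:**
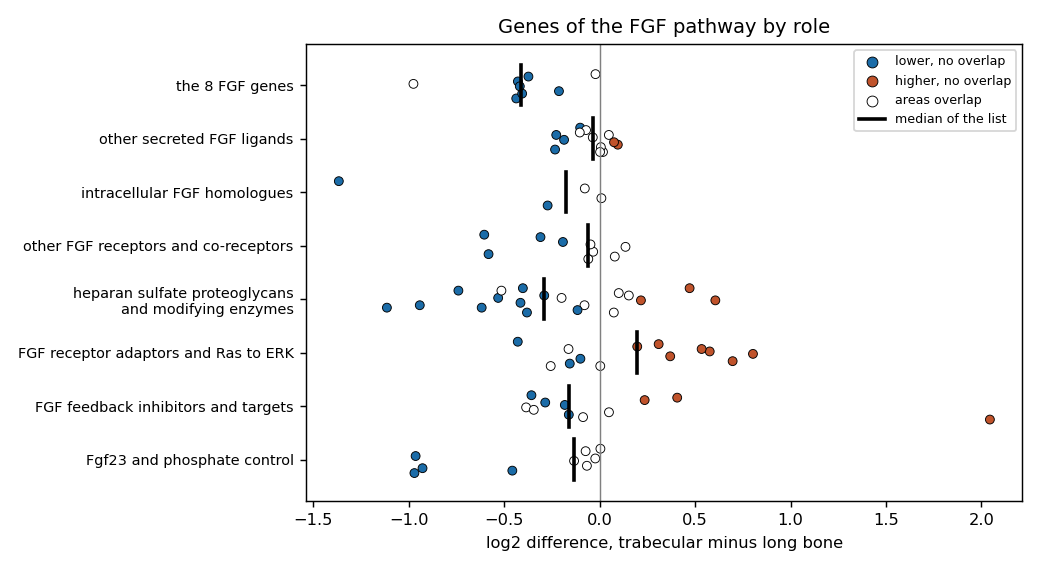
Log2 difference between areas, trabecular minus long bone (horizontal axis), of each measured gene of the 8 FGF genes and of 7 pathway lists (rows). Filled points have no overlap between areas and vertical bars are list medians, which run from -0.41 for the 8 FGF genes to 0.20 for the adaptors and Ras to ERK genes.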

How the data were processed

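Total RNA from sorted cells was amplified and hybridised. The probe set names and annotation are those of a mouse array, although the design text names a human one. The deposited values are log2 expression made by the authors with RMA, per the submitters' processing notes, and then centred: the median over the 4 arrays is 0 (within rounding) for all 45101 probe sets. For the centring software and the log base, the sources used here give nothing. Leaving out 64 controls, 45037 probe sets were tested. Of these 34945 had 1 gene, 932 several and 9160 none, and a gene is the mean of its own probe sets. By gene ID 34741 matched RefSeq and 0 symbols changed.

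The area contrast was fitted by lmFit and eBayes of limma 3.58.1 (R 4.3.3) with Benjamini-Hochberg adjustment at 0.05, without a replicate block. Deviations of same-numbered arrays from their area means correlated at -0.18, so the numbers were not taken to pair the samples. The fit was checked on data with known changes. Levels were read from the coarsest step of 32-bit numbers that fits all values of a probe set. The members and lists were chosen with earlier results of these data known. Named beside the members were up to 2 genes per pathway list and direction with no overlap, the 2 largest differences per marker list, and the 2 genes nearest to any member with a range of at least 1. Genes named beyond that rule (Fgfr4, Kl, Klb, Fgf12, Fgf13 and the genes used to check the sort) were chosen after their values were seen. Arrays differed from each other: no pair was a duplicate. Alternatives are given at the end.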

Additional observations from a re-analysis of the deposited data

How the results depend on the processing

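Of 113 alternative values of single genes 109 kept direction and side of the threshold, and of 177 of single probe sets 171 did. The exceptions were Fgf7, Fgf23 and probe sets of Fgf7, Fgfr2 and Fgf23. Fits that changed only the block or the variance model left every difference unchanged, so no direction could turn there. Genes with 1 probe set also stayed the same when probe sets were combined or picked in another way. No member was called in the fit to all arrays, so none could lose a call. These shares therefore do not measure stability. With 1 array left out, Fgf7 ran from -2.07 (called, without long bone array 1) to 0.12 (without long bone array 2), its probe sets from -3.22 to 0.21 and from -0.92 to 0.023, and Fgf23 from -0.20 to 0.16. The Fgfr2 probe sets ran from -0.49 to 0.055 (1420847_a_at, turned without long bone array 2) and from -0.41 to 0.040 (1443211_at, turned without trabecular array 2). Quantile normalization turned Fgf23 and its probe set to 0.022. The number of FGF genes at an unadjusted p under 0.05 was 3, and 0 to 5 with 1 array left out. With the replicate block it was 0, and with the crossed replicate block (trabecular 1 with long bone 2), added after the data were seen, 4. The block changed no other call. The adjusted count was 0, and 0 to 1 with 1 array left out. Without overlap, 6 genes were lower, 6 to 8 with 1 array left out, and 0 higher, 0 to 2. Dropping an array can only keep or raise these counts, so their range is no check on the separation. Levels of at least 8 left 2 genes, both lower without overlap and 1 at an unadjusted p under 0.05. That 1 was Fgfr2 at -0.72, while Fgfr1 was almost flat at -0.04. The median difference was -0.61 over the probe sets with the largest range, and -0.47 to -0.27 with 1 array left out. The cause of these changes was not tested.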
